A study of Mus musculus with 11 samples.

Results

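The 9 genes described here encode enzymes of the tricarboxylic acid cycle. They are Cs (citrate synthase), Idh3a, Idh3b and Idh3g (the subunits of NAD-dependent isocitrate dehydrogenase), Ogdh (the substrate-oxidising subunit of the oxoglutarate dehydrogenase complex), Suclg1 and Sucla2 (the alpha subunit and the ADP-dependent beta subunit of succinyl-CoA ligase), Fh1 (fumarate hydratase) and Mdh2 (mitochondrial malate dehydrogenase). They were chosen by name, with earlier results of these data known, and were 9 of the 55487 genes counted. All 9 had enough counts to be tested, among 10505 genes that did.

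The cycle runs in the mitochondrial matrix. It joins acetyl-CoA, made from pyruvate, fatty acids and ketone bodies, to oxaloacetate, and then releases the carbon as CO2 while electrons pass to NADH and, at succinate dehydrogenase, straight into the respiratory chain. In skeletal muscle the activity of citrate synthase is widely used as a measure of mitochondrial content, and the isocitrate and oxoglutarate dehydrogenases are activated by the calcium that rises in the matrix during contraction.

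RNA was measured in 11 mouse samples of gastrocnemius, a mixed calf muscle with mostly fast fibres. Of these, 4 were labelled as double knockout, lacking Raptor (gene Rptor) and mTOR (gene Mtor). Another 3 were labelled as lacking Raptor alone, and 4 as wild type. Raptor is the subunit that gives mTOR complex 1, a growth-controlling kinase, its substrates. In both knockouts a tamoxifen-dependent Cre was to cut the floxed alleles (Raptorfl/fl, with mTORfl/fl in the double knockout). Its promoter was that of human skeletal actin, a gene of muscle fibres, so other cells of the muscle are not targeted. All 3 groups, wild type included, were labelled as treated with tamoxifen from an age of 3 months; the chow was given for 7 weeks and muscle was taken 7 months after the start. Whether the wild-type mice carried Cre was not given in the sources used here. The study names 2 contrasts of interest, double knockout against wild type and double knockout against Raptor knockout; Raptor knockout against wild type is added as the third.

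Libraries were of the QuantSeq FWD kind, a tag method that reads the 3' ends of polyadenylated transcripts. They held 2791339 to 3536731 counts in the double knockout, 3223797 to 3764879 in the Raptor knockout and 3134575 to 6328533 in wild type. Rptor stood at 4.83 ± 0.566 CPM (each gene's share of its library's counts, scaled with TMM factors; SD, n = 4) in the double knockout, 4.57 ± 0.630 in the Raptor knockout (n = 3) and 9.83 ± 0.946 in wild type (n = 4). Mtor was not lower in the libraries labelled double knockout, at 35.9 ± 3.36 CPM against 20.6 ± 2.24 in the Raptor knockout and 20.8 ± 5.95 in wild type; reads from the transcript's end need not touch the deleted part, whose position no source used here gives, so these counts check neither deletion. Double-knockout replicates 3 and 4 came from a smaller sequencing run of 2 libraries. Xist RNA, made from the inactive X, was present in double-knockout replicates 1 to 3 and wild-type replicate 3 and near or at 0 in the other 7 libraries. Wild-type replicate 4 stood apart from the other wild-type libraries for several of the 9 genes, as given below. Nothing in the labels says more of the replicates than that each is a separate sample.

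In double-knockout muscle, 3 of the 9 enzyme genes were lower than in wild type and none was higher. Idh3a fell 1.61-fold, Suclg1 1.43-fold and Sucla2 1.39-fold. A gene was called when its adjusted p was under 0.05 in edgeR's two-sided quasi-likelihood F test, adjusted by the Benjamini-Hochberg method over all 10505 genes. By this rule 13.7% of all tested genes were called lower and 13% higher, either way 26.7% (1435 lower and 1367 higher, against 844 and 2421 with library totals). Of the 9 genes, with library totals Idh3a alone stayed lower, and Cs and Idh3b passed as higher. Without the smaller run only Idh3a was called. The 9 genes had a median log2 fold change of -0.29, against 0.02 for all tested genes, and with library totals of -0.05, against 0.25. Their summed level was 2050 to 2348 CPM in the double knockout, 2358 to 2537 in the Raptor knockout and 2310 to 3047 in wild type, so the sums of the double knockout and wild type overlapped. In bulk muscle, fewer cells of a type and less RNA per cell cannot be told apart.

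**Figure D1:**
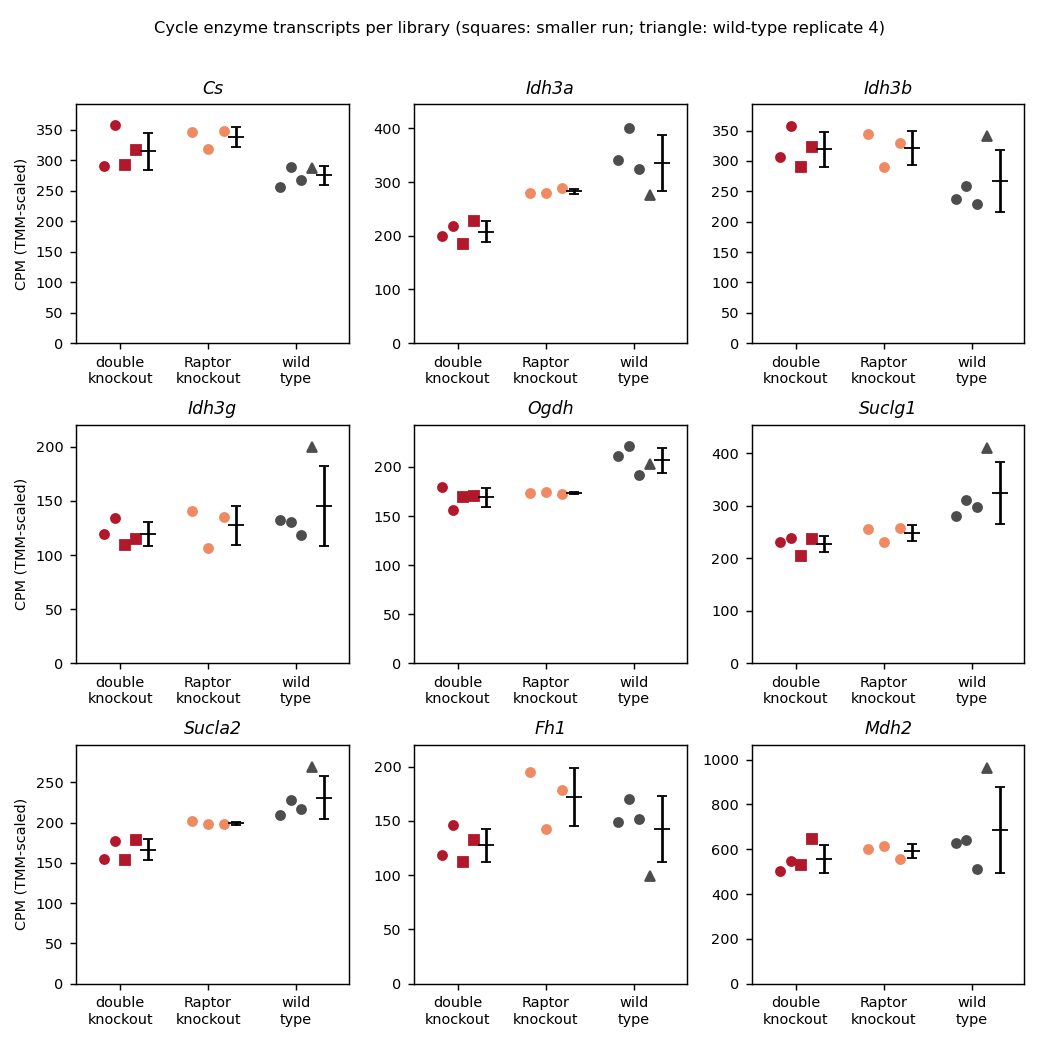
Level of each of the 9 genes in each library (TMM-scaled CPM, linear axis from 0), with the group mean and SD to the right of the points (n = 4 double knockout, 3 Raptor knockout, 4 wild type). Squares are the smaller run and the triangle is wild-type replicate 4. All 4 double-knockout points lie below all wild-type points for Idh3a, Ogdh, Suclg1 and Sucla2, and above them for Cs. Of all tested genes 13.6% lie below and 13.1% above in this way.

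Citrate synthase makes citrate from acetyl-CoA and oxaloacetate and is the entry of the cycle. Cs stood at 291, 357, 293 and 317 CPM in the double knockout, at 347, 319 and 348 in the Raptor knockout, and at 256, 289, 268 and 287 in wild type. Both knockouts lay above wild type with no overlap, which 13.1% of tested genes did for the double knockout and 14% for the Raptor knockout (either way, 26.8% and 27.3% of tested genes had no overlap). The log2 fold change did not pass the test in the double knockout (0.19 with an SE of 0.11, edgeR adjusted p = 0.214) or in the Raptor knockout (0.30 ± 0.12, edgeR adjusted p = 0.0938). With library totals in place of TMM scaling, and on the deposited TPM, both passed, at 0.43 and 0.34 in the double knockout and at 0.50 and 0.40 in the Raptor knockout; these settings raise the median of all genes by 0.23 and 0.15 in the double knockout and by 0.20 and 0.11 in the Raptor knockout.

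Isocitrate dehydrogenase of the NAD-dependent kind is the committed oxidative step, with Idh3a as its catalytic subunit and Idh3b and Idh3g as partners needed for assembly and allosteric control. Idh3a (ENSMUSG00000032279, GRCm38 chromosome 9, 54586334 to 54604661, plus strand) stood at 199, 219, 185 and 228 CPM in the double knockout. It stood at 279, 280.5 and 288 CPM in the Raptor knockout and at 342, 401, 324 and 275.5 in wild type. Every double-knockout library lay below every other library, while the Raptor-knockout libraries lay within the wild-type range. Of all tested genes 13.6% lay lower in the double knockout than in wild type without overlap. Against wild type Idh3a was lower by a log2 fold change of -0.69 ± 0.13 (edgeR adjusted p = 0.000743), place 721 of all tested genes by p. The lowest wild-type value was that of replicate 4, and without this library the change was -0.77. In the 9 libraries of the larger run it was -0.68 (edgeR adjusted p = 0.0134). Among libraries without Xist, with 1 double-knockout library left, the value was -0.59 and the call ended (edgeR adjusted p = 0.231); on TPM it was -0.43 (limma adjusted p = 0.0556 with a pseudocount of 1).

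The partner subunits were not called. Idh3b stood at 306, 357, 291 and 324 CPM in the double knockout, at 344, 291 and 329.9 in the Raptor knockout, and at 238, 259, 229.8 and 341 in wild type. Wild-type replicates 1 to 3 lay below all knockout libraries, and replicate 4 lay inside their range. The change in the double knockout was 0.26 ± 0.14 (edgeR adjusted p = 0.176). Without wild-type replicate 4 it was 0.40 and passed (edgeR adjusted p = 0.00696). It also passed in 3 of the 11 settings that keep every library or drop several, with changes of up to 0.50. These were library totals and TPM with either pseudocount, which raise the median of all genes. Idh3b lies on chromosome 2 and its end is overlapped on the other strand by exons of Nop56, a nucleolar protein gene; no source used here says whether counting used strand. Nop56 was low, at 25.1, 23.0 and 22.4 CPM on average in the double knockout, the Raptor knockout and wild type.

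Idh3g, on the X chromosome, stood at 119, 134, 109 and 115 CPM in the double knockout, at 140.2, 107 and 135 in the Raptor knockout, and at 132, 130.5, 118 and 199 in wild type. The highest value was that of wild-type replicate 4, and all 3 groups overlapped. The double-knockout change was -0.28 ± 0.16 (edgeR adjusted p = 0.219), and without that library -0.09. Within a library the log2 ratio of Idh3a to Idh3g counts averaged 0.80 ± 0.13 in the double knockout (SD, n = 4), 1.16 ± 0.21 in the Raptor knockout (n = 3) and 1.23 ± 0.52 in wild type (n = 4). The double knockout lay below the Raptor knockout with no overlap, a difference of -0.36 (exact permutation test, two-sided, p = 0.0571, adjusted p = 0.228 over 12 ratio tests). Against wild type the difference was -0.43 and the groups overlapped (exact permutation p = 0.143, adjusted p = 0.429). The overlap came from wild-type replicate 4, at 0.47, where wild-type replicates 1 to 3 stood at 1.37, 1.62 and 1.46. Leaving this library out made the difference -0.68. As it was picked after its value was seen, the lack of overlap without it was fixed in advance, and no p is given. The ratio of Idh3a to Idh2, the NADP-dependent mitochondrial enzyme, differed by -0.28 from wild type and -0.26 from the Raptor knockout, with overlap in both (exact permutation p = 0.4 and p = 0.229, adjusted p = 0.6 and 0.458). Without wild-type replicate 4 the first difference was -0.45, without wild-type replicate 3 it was -0.17, and without double-knockout replicate 4 the second was -0.40. With groups of 4 and 4 or 3 and 4, the smallest p that the test can give is 0.0286, so that 12 adjusted tests leave little room to pass.

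Ogdh encodes the thiamine-dependent subunit that decarboxylates oxoglutarate. It stood at 179.5, 156, 169.6 and 171 CPM in the double knockout, at 173, 174 and 172 in the Raptor knockout, and at 211, 222, 192 and 203 in wild type. All 7 knockout libraries lay below all 4 wild-type libraries. Of tested genes, 13.6% lay below wild type without overlap in the double knockout and 13.2% in the Raptor knockout. The change was -0.29 ± 0.11 in the double knockout (edgeR adjusted p = 0.0518) and -0.25 ± 0.11 in the Raptor knockout (edgeR adjusted p = 0.139), and neither passed. The double-knockout change passed with DESeq2 size factors (-0.30, edgeR adjusted p = 0.0439), with the DESeq2 Wald test (-0.30, adjusted p = 0.0205) and without wild-type replicate 3 (-0.35, edgeR adjusted p = 0.0337) or 4 (-0.30, edgeR adjusted p = 0.0217). On library totals it was -0.05.

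Succinyl-CoA ligase makes the only nucleotide triphosphate formed in the cycle itself. Its alpha subunit, Suclg1, pairs with Sucla2 to make ATP or with Suclg2 to make GTP. Suclg1 (ENSMUSG00000052738, GRCm38 chromosome 6, 73248382 to 73276911, plus strand) and Sucla2 (ENSMUSG00000022110, GRCm38 chromosome 14, 73525319 to 73596142, plus strand) were the pair of partner subunits that both fell in the double knockout. Their promoters are shown because both genes were called lower. They are RefSeq sequences of GRCm38.p6, 250 bases before to 50 after the start, plus strand, at chr6:73248255-73248554 and chr14:73552536-73552835. Capitals mark the match to the NRF1 element, bound by the factor that Nrf1 encodes.
Suclg1: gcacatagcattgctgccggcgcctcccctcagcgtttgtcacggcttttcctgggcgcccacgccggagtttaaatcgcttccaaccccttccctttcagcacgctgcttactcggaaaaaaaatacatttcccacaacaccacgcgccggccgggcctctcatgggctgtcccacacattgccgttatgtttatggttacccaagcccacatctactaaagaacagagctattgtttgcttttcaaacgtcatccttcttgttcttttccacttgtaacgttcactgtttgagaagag
Sucla2: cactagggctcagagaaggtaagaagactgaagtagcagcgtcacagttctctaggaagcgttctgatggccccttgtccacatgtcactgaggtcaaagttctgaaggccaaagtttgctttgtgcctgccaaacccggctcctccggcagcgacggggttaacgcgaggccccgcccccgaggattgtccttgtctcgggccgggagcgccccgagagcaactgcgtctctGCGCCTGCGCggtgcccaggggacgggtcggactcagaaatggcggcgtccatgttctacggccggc
The match in Sucla2 begins at position -17 from the start. The RefSeq table matched 8 of the 9 genes, all but Idh3a, and each was searched on both strands for this element, for TNAAGGTCA (the element of the oestrogen-related receptors) and for CCGGAAGT (an ETS element). Sucla2 was the 1 gene of the 8 with the first element, which 5.19% of all 27025 genes in the table held. The other elements were in 0 of the 8, against 1.43% and 4.31% of all genes.

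Suclg1 stood at 230.1, 239.5, 205 and 236 CPM in the double knockout, at 257, 231 and 257 in the Raptor knockout, and at 280.5, 310.0, 297 and 410.3 in wild type. Sucla2 stood at 156, 178, 154 and 178 CPM in the double knockout, at 202, 198 and 198 in the Raptor knockout, and at 209, 228.5, 217 and 269 in wild type. For both genes the double knockout and the Raptor knockout lay below all wild-type libraries (shares of all tested genes as given for Ogdh). Wild-type replicate 4 was the highest library for both. For Sucla2 the double knockout also lay below the Raptor knockout with no overlap.

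The double knockout against wild type gave a log2 fold change of -0.51 for Suclg1 (SE 0.13, edgeR adjusted p = 0.00798) and of -0.47 for Sucla2 (SE 0.12, edgeR adjusted p = 0.00642). Without wild-type replicate 4 the changes were -0.38 and -0.39 and still passed (edgeR adjusted p = 0.00572 and 0.00446). In the larger run alone they were -0.47 for each and did not pass (edgeR adjusted p = 0.0798 for Suclg1 and 0.0519 for Sucla2). With run as a covariate the Suclg1 call ended (-0.47, edgeR adjusted p = 0.0616) and Sucla2 passed (-0.47, edgeR adjusted p = 0.0387). Among libraries without Xist they were -0.52 and -0.43 (edgeR adjusted p = 0.322 and 0.368). On library totals they were -0.27 and -0.24 and did not pass (edgeR adjusted p = 0.114 and 0.115), with the median of all genes at 0.25. Over the 11 libraries the log2 CPM of the 2 genes had a Pearson r of 0.93, the highest of the 36 pairs of enzymes. Their deviations from the group means had an r of 0.892. Deviations gave higher values for Idh3b with Idh3g (0.961), Idh3b with Suclg1 (0.947), Idh3g with Suclg1 (0.907) and Idh3b with Sucla2 (0.893). All other pairs were lower. Likeness within groups was thus not particular to Suclg1 and Sucla2. The points share library, depth and wild-type replicate 4. The log2 ratio of Sucla2 to Suclg2, its GTP-forming counterpart, was 2.11 ± 0.21 in the double knockout (SD, n = 4), 2.11 ± 0.19 in the Raptor knockout (n = 3) and 2.38 ± 0.47 in wild type (n = 4), and no comparison of the 3 passed (exact permutation p from 0.4 to 1).

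Fh1 hydrates fumarate to malate. It stood at 118.5, 146.5, 113 and 133 CPM in the double knockout, at 195, 143 and 179 in the Raptor knockout, and at 149, 169.8, 151.5 and 99.0 in wild type. Wild-type replicate 4 was the lowest library of all, and the groups overlapped in every comparison. The double knockout differed from wild type by -0.16 ± 0.16 (edgeR adjusted p = 0.513), a direction that turned with library totals (0.07) and on TPM (0.04). Against the Raptor knockout it was -0.43 ± 0.17 (edgeR adjusted p = 0.423).

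Mdh2 closes the cycle by oxidising malate to oxaloacetate, and also serves the malate-aspartate shuttle with its cytosolic counterpart Mdh1. It stood at 504, 547, 531 and 647.5 CPM in the double knockout, at 600.5, 615 and 557 in the Raptor knockout, and at 626, 642, 513 and 963 in wild type. All groups overlapped, and wild-type replicate 4 was far above the rest. The change was -0.30 ± 0.16 in the double knockout (edgeR adjusted p = 0.191), -0.09 without wild-type replicate 4, and -0.43 without wild-type replicate 3, where it passed (edgeR adjusted p = 0.0485). The log2 ratio of Mdh2 to Mdh1 averaged 0.91 ± 0.16 in the double knockout (SD, n = 4), 0.75 ± 0.07 in the Raptor knockout (n = 3) and 1.17 ± 0.11 in wild type (n = 4). It was 0.42 lower in the Raptor knockout than in wild type with no overlap (difference -0.42, exact permutation test, two-sided, p = 0.0286, the smallest it can give, adjusted p = 0.228). In the double knockout the difference from wild type was -0.26, with overlap (exact permutation p = 0.0571, adjusted p = 0.228).

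**Figure D2:**
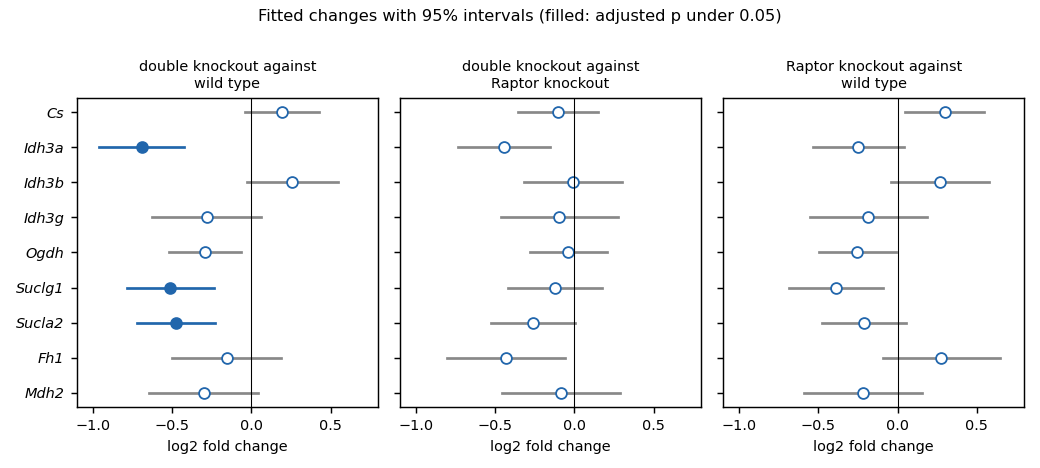
Fitted log2 fold change of each gene (points) with its 95% interval (lines) in the 3 comparisons, positive meaning higher in the group named first; filled points passed the test. The 3 filled points are Idh3a, Suclg1 and Sucla2 in the double knockout against wild type, and no point is filled in the other comparisons.

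Set directly against the Raptor knockout, none of the 9 genes was called in the double knockout. All 9 fitted changes were at or below 0, from -0.44 to -0.01 with a median of -0.10, and 49% of all tested genes had a fitted change below 0. Few genes of any kind were called here: edgeR called 3 of 10505 genes, 0.0286% (0.019% lower and 0.00952% higher), with 997 at an unadjusted p under 0.05. Idh3a had the largest difference of the 9, at -0.44 ± 0.14 (edgeR adjusted p = 0.254), with no overlap between groups. It passed with only these 2 groups in the fit (-0.43, edgeR adjusted p = 0.0434), a fit that called 157 genes in all. Sucla2, also without overlap, was at -0.26 ± 0.12 (edgeR adjusted p = 0.536); 7.03% of tested genes lay lower without overlap. The 95% interval of the log2 difference ran from -0.28 to 0.21 for Ogdh, from -0.36 to 0.15 for Cs, from -0.32 to 0.30 for Idh3b and from -0.45 to 0.29 for Mdh2.

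In the Raptor knockout against wild type none of the 9 genes was called either, where edgeR called 18.2% of all tested genes (9.43% lower and 8.73% higher), with 3333 at an unadjusted p under 0.05. Suclg1 came nearest, at -0.39 ± 0.14 (edgeR adjusted p = 0.0668), followed by Cs at 0.30 and Ogdh at -0.25. Ogdh, Suclg1 and Sucla2 lay below wild type without overlap, as did 13.2% of tested genes, and the median of the 9 genes was -0.21, against 0.0013 for all, of which 49.9% had a fitted change below 0. Without wild-type replicate 4 the median of the 9 genes was -0.0065, against 0.02 for all, and with library totals -0.0056, against 0.20 for all. The DESeq2 Wald test called Suclg1 lower (-0.41, adjusted p = 0.0427). Without wild-type replicate 4, 3 genes passed: Cs (0.32) and Idh3b (0.41) higher and Idh3a (-0.33) lower. Because both knockouts were set against the same wild-type libraries, the 2 comparisons with wild type are not independent. No test of likeness between them was made.

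TPM, which divides a count by a transcript length that the quantification assigns in each library, shifted Sucla2 far from the median gene. In the libraries labelled double knockout, Sucla2 TPM per CPM (log2, CPM on library totals) ran from -0.75 to -0.46. The Raptor knockout held -0.67 to -0.53 and wild type -0.00 to 0.24. The knockouts thus lay apart from wild type, by 0.66 beyond the median gene in the double knockout (difference -0.66); of 9368 genes 0.619% had a larger shift. On TPM the change of Sucla2 was -0.97 in the double knockout (limma adjusted p = 0.000183) and -0.68 in the Raptor knockout (limma adjusted p = 0.00485), against -0.47 and -0.21 on counts. TPM starts from the same reads, so the gap lies in the assigned length and the scaling. These libraries read transcript ends, where a count need not grow with transcript length. GENCODE M21 lists 7 transcripts of Sucla2, all on chromosome 14. The coding ones have 1545 bases (ending at 73595783), 2229 bases (ending at 73596142) and 554 bases (ending at 73560543). A processed transcript of 538 bases also ends at 73596142. Which transcript the reads came from was not tested. None of the other 8 genes shifted by more than 0.10 beyond the median gene in this comparison.

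**Figure D3:**
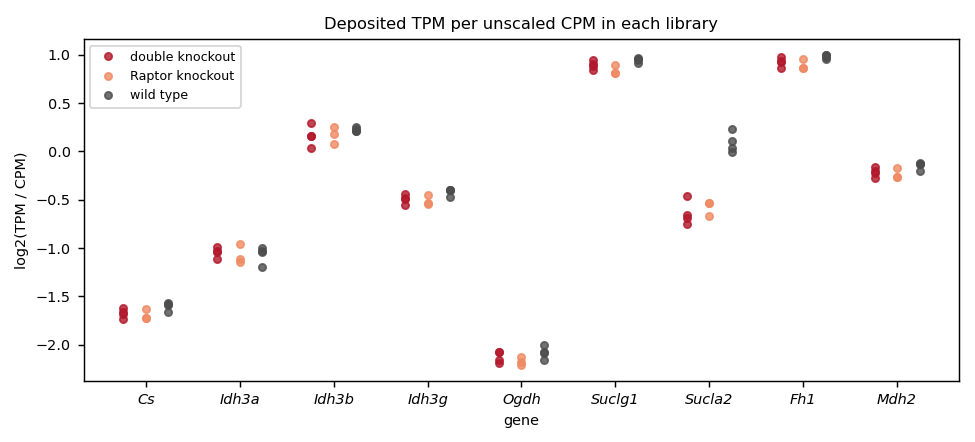
Deposited TPM per unscaled CPM (log2) of each gene in each library, by group. Only Sucla2 shows the knockout libraries (-0.75 to -0.46 and -0.67 to -0.53) well apart from wild type (0.00 to 0.24).

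Of the 9 other matrix subunits of the cycle and its isoenzymes that were tested, 3 were lower in the double knockout than in wild type and none higher (median -0.20). They were Sdhd and Sdhb of succinate dehydrogenase and Idh2. Sdhd, which anchors that enzyme in the inner membrane, stood at 7.90, 14.8, 11.4 and 15.1 CPM in the double knockout, at 64.4, 40.9 and 85.7 in the Raptor knockout, and at 30.8, 55.1, 57.4 and 24.1 in wild type. It was one of the 3 genes called between the knockouts, 5.14-fold lower in the double knockout (log2 fold change -2.36 ± 0.34 with edgeR adjusted p = 0.045) and 3.38-fold lower than in wild type (edgeR adjusted p = 0.00162). The difference between the knockouts ran from -2.60 to -2.06 under 22 alternatives and passed in 8 of them, among them 4 of the 11 that leave out 1 library. Sdhb, the iron-sulphur subunit, was 1.79-fold lower than in wild type (edgeR adjusted p = 0.0133), with 1163 CPM in wild-type replicate 4 against 479.9 to 598 in wild-type replicates 1 to 3. This call ended with run as a covariate, in the larger run alone, with an Xist covariate and among libraries without Xist. Idh2 was 1.33-fold lower (edgeR adjusted p = 0.0473), a call held in 5 of 22 alternatives. Of the 4 cytosolic counterparts, Acly, which splits citrate for lipid synthesis, was 2.20-fold higher (edgeR adjusted p = 0.00754) and the others were not called.

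Of 12 genes of pyruvate entry, 5 were lower in the double knockout against wild type and none higher (median -0.66). The pyruvate carrier subunits Mpc1 and Mpc2 were 2.03-fold and 1.66-fold lower, and Pdp1, the phosphatase that switches pyruvate dehydrogenase on, was at -1.76 on the log2 scale (edgeR adjusted p = 3.57e-05, 0.00126 and 7.9e-05). Of 16 genes of anaplerosis and cycle exits, 10 were lower and none higher (median -0.74). Oxct1, which returns ketone bodies to acetyl-CoA with succinyl-CoA from the cycle, stood at 57.8, 47.9, 55.1 and 45.3 CPM in the double knockout, at 92.0, 59.3 and 82.2 in the Raptor knockout, and at 339.9, 397, 314.5 and 564 in wild type. It was 7.83-fold lower in the double knockout and 5.18-fold lower in the Raptor knockout than in wild type (edgeR adjusted p = 9.87e-08 and 3.24e-06). Gpt2, the mitochondrial alanine transaminase, was 4.79-fold and 6.99-fold lower, and Me1, the cytosolic malic enzyme, 2.43-fold and 2.58-fold lower. In the Raptor knockout 2 of 12 genes of pyruvate entry and 7 of 16 of anaplerosis were lower, where 9.43% of all tested genes were. For the double knockout the lower counts were 4 of 12 and 8 of 16 in the larger run alone, and 2 of 12 and 4 of 16 among libraries without Xist. With library totals 4 were lower and 1 higher in pyruvate entry, and 8 lower and 2 higher in anaplerosis.

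**Figure D4:**
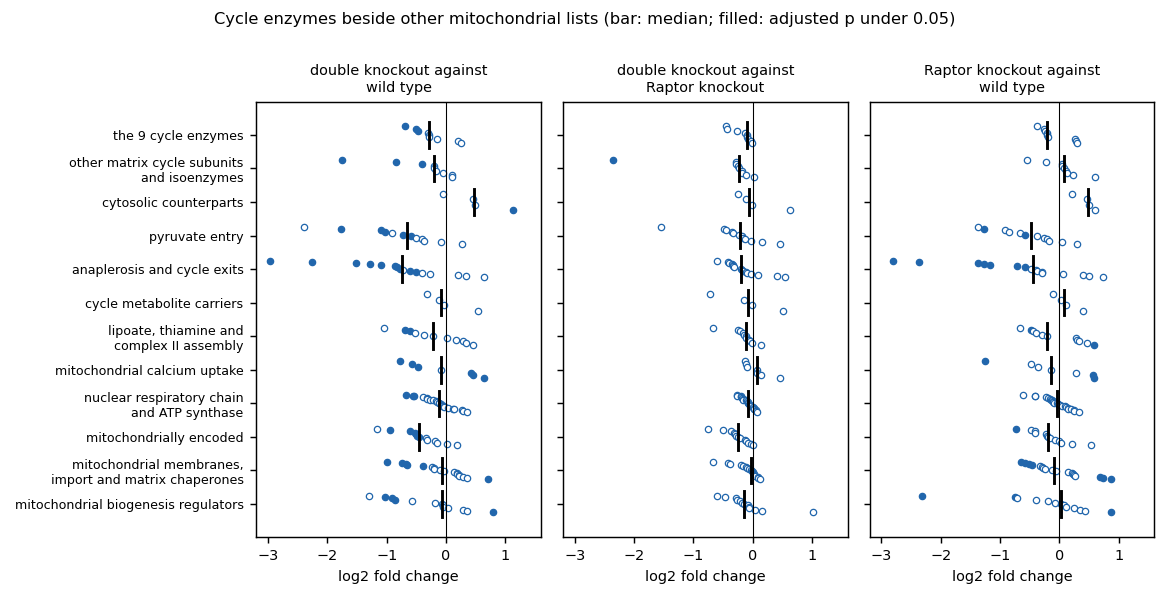
Log2 fold changes of the 9 cycle enzymes (top row) and of 11 other gene lists, some with cytosolic members, in the 3 comparisons. Each circle is a gene, filled where it passed the test, and the bar is the list's median. The medians in the double knockout against wild type are -0.29 for the 9 enzymes, -0.66 for pyruvate entry and -0.74 for anaplerosis and cycle exits.

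In other mitochondrial groups the calls with TMM scaling were mostly lower, with higher ones only among genes of calcium uptake, membranes and biogenesis. No metabolite carrier of the 4 tested was called; Slc25a12, an aspartate-glutamate carrier, was at -0.13 (edgeR adjusted p = 0.636). Of 11 genes for lipoate, thiamine and complex II assembly, Isca1, an iron-sulphur assembly factor, and Sdhaf3, an assembly factor of succinate dehydrogenase, were lower (1.61-fold and 1.52-fold, edgeR adjusted p = 0.000951 and 0.0365, the second held in 7 of 22 alternatives). Of 7 calcium uptake genes 3 were higher and 3 lower: the channel Mcu was at 0.64, and Micu3, a calcium sensor, and Mcur1, a regulator, were at -0.785 and -0.48 (edgeR adjusted p = 0.0113, 0.00288 and 0.00987, the last held in 16 of 22 alternatives). Of 23 nuclear genes of the respiratory chain and ATP synthase, 4 were lower, among them Cox5a (log2 fold change -0.68), Uqcrc1 (-0.54, held in 15 of 22 alternatives) and Ndufs8 (-0.56, held in 6), and none higher (median -0.13), while with library totals 4 were higher and 1 lower. Of 13 mitochondrially encoded genes 6 were lower (0 among libraries without Xist, and 2 lower with 1 higher on library totals), among them mt-Nd2, mt-Nd1 and mt-Nd4, subunits of complex I, at -0.94, -0.60 and -0.52. Of 18 genes of membranes, import and chaperones, 5 were lower, among them the fusion gene Mfn2 (log2 fold change -0.998) and the outer membrane channel Vdac1 (-0.68), and Phb2, an inner membrane scaffold, was higher (0.70, edgeR adjusted p = 0.000489). With library totals 7 of these 18 were higher and 4 lower. Of 13 regulators of mitochondrial biogenesis, Tfb2m, a mitochondrial transcription factor, was 2.04-fold lower and Perm1, a muscle coregulator, 1.82-fold lower (held in 17 of 22 alternatives), and Nrf1 was higher (0.79, edgeR adjusted p = 0.00838). The third lower regulator, chosen after its value was seen, was the coactivator Ppargc1a (-0.90, edgeR adjusted p = 0.017). The counts of each list stand against the 13.7% lower and 13% higher of all tested genes, and those with library totals against 844 lower and 2421 higher of 10505.

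Markers of fibre type and of other cells moved in the same comparison. Of 8 slow-fibre markers 7 were higher in the double knockout and none lower, with a summed level of 1538 to 2705 CPM, against 2127 to 2452 in the Raptor knockout and 713 to 1360 in wild type. Of 9 fast-fibre markers 5 were lower and 1 higher; their sum was 60780 to 71890 CPM in the double knockout, 61460 to 66290 in the Raptor knockout and 86020 to 90380 in wild type. Macrophage markers were higher in 5 of 8 cases (sums of 138 to 179, 94.8 to 192 and 68.7 to 125 CPM in the double knockout, the Raptor knockout and wild type) and fibroblast markers in 3 of 5 (1002 to 1172, 896 to 1011 and 558 to 873 CPM). No endothelial marker of 7 was called. These counts stand against the 13% higher and 13.7% lower of all tested genes, and the marker lists were not counted under the alternatives. Of all markers, Lep alone was at 0 in any library. Fast-fibre markers had the highest sum of these lists in every library. The part of fibre type or of other cells in the changes of the 9 genes was not tested.

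By a rule set for each enzyme called, the genes whose log2 CPM ran most like it over the 11 libraries were Acadm (Pearson r = 0.97) and Camk2g (r = 0.97) for Idh3a, Pgm1 (r = 0.98) and Pygm (r = 0.975) for Suclg1, and Gnb5 (r = 0.98) and Gm10925 (r = 0.97) for Sucla2. Acadm encodes a fatty acid dehydrogenase, Pgm1 a glucose phosphate mutase and Pygm muscle glycogen phosphorylase. These values are the highest over all tested genes and describe libraries that share genotype, depth and wild-type replicate 4. The enzymes not called had nearest genes as close, from r = 0.935 (Carm1 for Cs) to 0.984 (Uqcr10 for Idh3b).

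**Figure D5:**
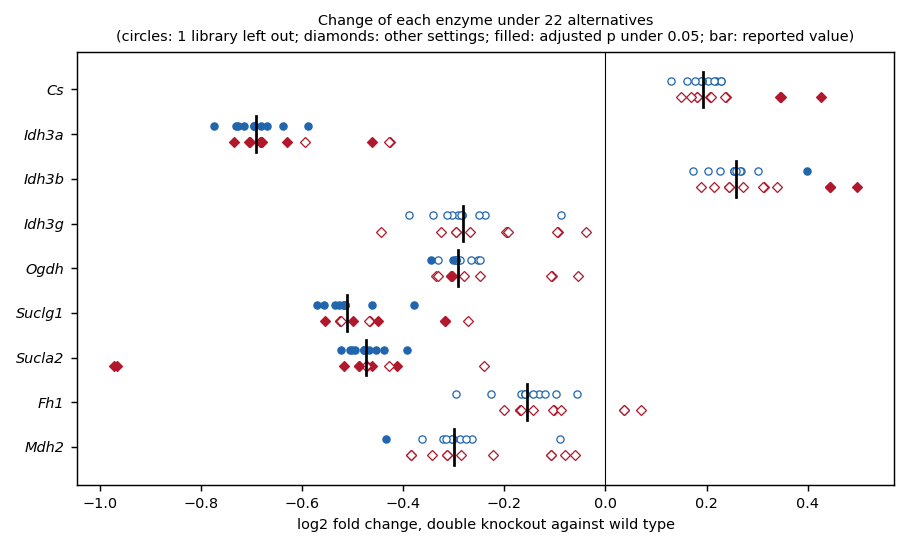
Log2 fold change of each gene in the double knockout against wild type under 22 alternatives; circles leave out 1 library, diamonds are other settings, filled symbols have an adjusted p under 0.05 and the bar is the reported value. Idh3a ran from -0.77 to -0.43 and stayed below 0 in all, Suclg1 from -0.57 to -0.27 and Sucla2 from -0.97 to -0.24. The -0.97 of Sucla2 is on TPM, with its shift in assigned length.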

How the data were processed

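Gene tables deposited by the authors held expected counts per gene, for which the submitters' processing notes name RSEM 1.3.3, STAR 2.7.0, fastp 0.20.0 and the build GRCm38 (mm10). A table deposited by the authors held TPM. No source used here gives the annotation release, strand setting or filters. Columns matching no sample here (6) were not used. Groups followed the genotype labels, replicates were numbered in accession order, and the sequencing run was read from the tables' names. GENCODE M21 gave positions and RefSeq (GRCm38.p6) promoters.

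Counts were rounded (2.25% were not whole) and tested with edgeR 4.0.16 (R 4.3.3) after filterByExpr and TMM. The quasi-likelihood fit was robust and held the 3 groups in 11 libraries (8 residual degrees of freedom), with the F test for 3 contrasts, called at a Benjamini-Hochberg adjusted p under 0.05. Log2 CPM, used for likeness between genes, has a prior count of 0.5. Ratios of genes within a library were set between groups with exact permutation tests (12 tests). No 2 libraries were repeats: chi-square per degree of freedom was at least 3.34 for every pair. The p-values measure the spread between these samples. The edgeR step was also run on counts simulated with the dispersions fitted here and with no effect of run or Xist. That simulation does not check the calls made here.

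Alternatives were DESeq2 size factors, library totals, no filter, only the groups compared, run as a covariate or 1 run alone, DESeq2 1.42.0 with its Wald test, limma 3.58.1 on log2(TPM + 1) or log2(TPM + 0.1) where TPM averaged 1 or more, an Xist covariate or libraries without Xist (under 10 CPM), and each library left out. Named were all 9 genes; from each companion list up to 3 called genes with the smallest adjusted p in the double knockout against wild type, or else the most abundant; Rptor and Mtor; ratio partners; and the 2 genes most like each called enzyme. The enzymes and lists were chosen with earlier results of these data known.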

Additional observations from a re-analysis of the deposited data

How the results depend on the processing

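Of 594 values of the 9 enzymes under alternatives, 536 kept their direction and side of the threshold, 10 lost a call, 24 gained one and 24 turned. In the double knockout against wild type, the number of enzymes called (3) became 2 with run as a covariate (Suclg1 lost), 1 without the smaller run, 0 in the libraries without Xist (a single double-knockout library, given the spread of the rest), and ran from 3 to 5 when 1 library was left out, with 5 without wild-type replicate 3 or 4; with library totals 2 were higher and 1 lower, and on TPM 2 and 2. Genes called in all fell to 472 without Xist, with 2160 to 3344 on leaving out 1 library; 1367 were higher and 1435 lower, against 2421 and 844 with library totals and 1766 and 779 on TPM. Between the knockouts, genes called (3) were 105 with no filter, 157 with 2 groups, 99 with the Wald test, 1 on TPM with a pseudocount of 1, 0 with an Xist covariate or without Xist, and 0 to 97 on leaving out 1 library (97 without wild-type replicate 4); enzymes called were 1 with 2 groups and 0 on leaving out any library. In the Raptor knockout against wild type, genes called (1908) were 1265 without Xist and 1140 to 2413 on leaving out 1 library, 1140 without Raptor-knockout replicate 1 and 1224 without Raptor-knockout replicate 3; 917 were higher and 991 lower, against 1638 and 573 with library totals. Enzymes called (0) were 2 with library totals, 1 with the Wald test, 2 on TPM with either pseudocount and 0 to 3 on leaving out 1 library.

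Directions that turned were those of small changes. Fh1 in the double knockout against wild type was 0.0701 with library totals and 0.04 (0.0371 and 0.0374) on TPM. Idh3b between the knockouts was 0.02 (0.0219) with library totals, 0.0022 with 2 groups, 0.04 with run as covariate (0.0433) or without the smaller run (0.0429), 0.02 on TPM (0.0198 and 0.0199), 0.11 with an Xist covariate, 0.02 (0.0178) without Xist and -0.0800 to 0.0382 on leaving out 1 library. With an Xist covariate Idh3g was 0.0277, Ogdh 0.0255 and Mdh2 0.22 there; Ogdh was 0.04 (0.0393 and 0.0400) on TPM and Mdh2 0.14 without Xist. Idh3g in the Raptor knockout against wild type was 0.02 (0.0238) with library totals and 0.0073 without wild-type replicate 4 (-0.32 to 0.0073 on leaving out 1 library). The Sucla2 to Suclg2 ratio between the knockouts (0.0016) was -0.0293 without the smaller run, -0.11 on TPM and -0.10 to 0.0905 on leaving out 1 library. In the Raptor knockout against wild type the Idh3a to Idh2 ratio was 0.0661 on TPM and -0.19 to 0.0826 on leaving out 1 library, and the Idh3a to Idh3g ratio 0.01 (0.0147) and -0.32 to 0.0604. The cause was not tested.

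No paired analysis was possible because the labels number no replicates. Run and double knockout are partly confounded, since the smaller run holds double-knockout libraries alone, and Xist and genotype partly too.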

Other observations

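The 9 enzymes together took 0.234 ± 0.012% of the counts of a double-knockout library, 0.255 ± 0.012% of a Raptor-knockout library and 0.236 ± 0.020% of a wild-type library (SD). Mitochondrially encoded genes took 20.1 to 24.2% of the counts in the double knockout, 23.8 to 26.0% in the Raptor knockout and 23.3 to 29.7% in wild type.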
